A study of Mus musculus with 6 samples.

Results

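The Zbtb genes encode transcription factors with an amino-terminal BTB domain and carboxy-terminal zinc fingers. They were chosen here by symbol, as the protein-coding genes whose symbol starts with Zbtb, and 42 of the 41079 listed genes met that rule. One of them, Zbtb8os, has the prefix only because it lies next to Zbtb8a. It encodes archease, a cofactor of the tRNA ligase and no BTB zinc finger protein, so that 41 members remain without it. RNA sequencing was performed on D10 T cells, a cloned mouse CD4+ helper T cell line of lymph node origin, with 3 replicates of cold-acclimated cells (24 h at 26°C) and 3 replicates of non-acclimated cells (24 h at 37°C). All libraries came from this cell line with no genetic change, and culture temperature was the only difference that the labels tie to the groups. RNA extraction batches are named in the labels without their libraries. The study asked how cold acclimation prepares T cells to move at low temperature. Because a line derived from 1 clone was used, the values describe these cultured cells and not helper T cells in an animal.

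In these proteins the zinc fingers read a DNA sequence, and the BTB domain pairs the protein with another BTB protein and recruits corepressors such as NCOR and BCOR with histone deacetylases. Some BTB domains also bind cullin 3, the scaffold of a ubiquitin ligase. In T cells the family is best known for lineage control. ThPOK, the product of Zbtb7b, holds helper T cells in the CD4 fate, PLZF, the product of Zbtb16, directs innate-like T cells, and BCL6, a relative with another symbol, directs follicular helper T cells. A second group of members, Zbtb4, Zbtb33 and Zbtb38, binds methylated CpG.

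Expression was given as TPM (transcripts scaled to a fixed total), a level per gene length in which every library sums to the same total. The whole reads behind the TPM were recovered, and the libraries held 16899628 to 31290854 reads, with 26 to 43 reads (median) behind a TPM near 1. The label of CD4+ T cells was checked first. Cd4 itself was at 1.09, 0.0351 and 310 TPM in non-acclimated replicates 1, 2 and 3 against 1.30, 0.352 and 328 TPM in cold-acclimated replicates 1, 2 and 3, so the label was met in both replicate 3 libraries, and the data went against it in the other 4. Cd3e (476 to 874 TPM), Cd3g (954 to 1847 TPM) and Gata3 (387 to 751 TPM), markers of T cells and of the Th2 type, were high in every library. Other markers were low in replicate 2, where Trac was at 15.0 and 12.8 TPM (129 to 207 TPM in the other replicates), Cd28 at 7.35 and 5.61 TPM (27.9 to 54.5 TPM), Cd3d at 64.3 and 78.6 TPM (240 to 332 TPM) and Il13 at 2.12 and 2.30 TPM (54.5 to 338 TPM). Lck was lowest there too (245 and 223 TPM against 339 to 732 TPM). Zap70 (245 and 126 TPM), Il4 (43.5 and 44.1 TPM) and Il5 (5.47 and 3.19 TPM) were not lowest in replicate 2 at both temperatures. Il5 was highest in replicate 3 (23.4 and 13.9 TPM). The 7 B cell markers summed to at most 3.62 TPM and the 6 macrophage markers to at most 21.2 TPM. Of the erythroid markers, Hba-a1 was at 60.8 to 485 TPM while Hbb-bs and Hbb-bt were at 0. Replicate 3 by Cd4 and Lyz2, and replicate 2 by Trac, Cd28, Cd3d and Il13, thus stood apart at both temperatures. The calls are therefore also given without each of these pairs. In bulk RNA, fewer expressing cells and less RNA per cell cannot be told apart.

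Of the 42 Zbtb genes, 36 had a mean TPM of at least 1 and were tested with limma among 12227 genes. Calls required a Benjamini-Hochberg adjusted p below 0.05 together with a change of 1 or more, in size, on the log2 scale. None of the members was called higher at 26°C, where the background was 2.63% of all genes, and 9 were called lower, which is 25.0% of those tested against 16.0% of all genes and 16.8% of protein-coding genes. The 9 downregulated genes were Zbtb26, Zbtb4, Zbtb40, Zbtb7b, Zbtb42, Zbtb3, Zbtb18, Zbtb9 and Zbtb14. At an unadjusted p under 0.05, 14 members were lower and 1 was higher, against 30.0% and 7.75% of all genes. The fold changes are on the log2(TPM + 1) scale, which understates the change of genes with low TPM. Without Zbtb8os the count was again 9, of 35 tested.

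TPM fixes only the total of a library, and over all tested genes the log2 fold changes had a median of -0.34. The median of the 36 Zbtb genes was -0.59, which is 0.25 below that of all genes (a difference of -0.25, and of -0.27, -0.25 and -0.22 in replicate pairs 1, 2 and 3). Leaving out a library moved this difference most for cold-acclimated replicate 1 (to -0.14), cold-acclimated replicate 2 (to -0.14) and non-acclimated replicate 1 (to -0.39). When libraries were scaled by the median of ratios instead, the median of all genes moved by 0.37 to 0.033. The calls over all genes then went from 321 higher and 1954 lower to 840 higher and 1052 lower. On that scale 7 Zbtb genes were called lower (background 8.6%) and 1, Zbtb41, was called higher (background 6.87%). Zbtb9 and Zbtb14 lost their calls. With voom on the recovered reads 8 were called lower (background 9.51%) and 1, again Zbtb41, higher (background 5.91%). With the replicate number as a block 10 were called lower (background 21.9%) and none higher (background 3.75%). At a limma adjusted p under 0.05 whatever the size, 13 members were lower with the block and 9 without it (3547 and 2123 of the 12227 genes). Members with a negative fold change numbered 28 of 36, against 66.5% of all genes, and 24 of 36 lay below the all-gene median.

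**Figure D1:**
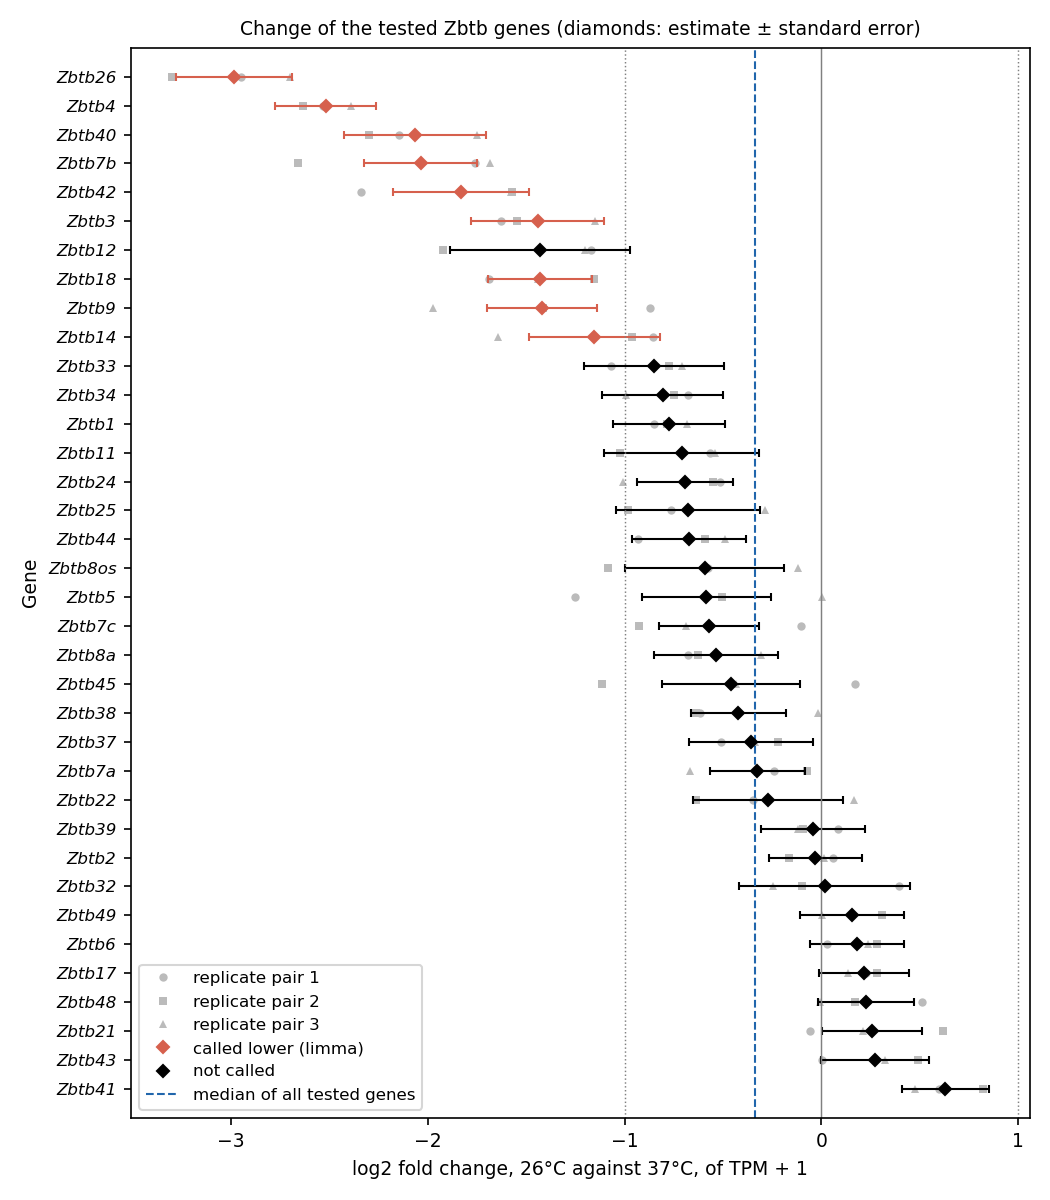
Log2 fold change of TPM + 1, 26°C against 37°C, of the 36 tested Zbtb genes. Diamonds give the limma estimate with its standard error (red where called lower), grey symbols the 3 replicate pairs, the dashed line the median of all tested genes (-0.34), the solid line 0 and the dotted lines a change of 1 in size. The genes run from Zbtb26 at -2.98 to Zbtb41 at 0.63, and 9 of them are red.

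The replicates gave a like order of the members: Spearman's rho between pairs, over the 36 genes, was 0.80, 0.78 and 0.84, as a description of libraries that share no sample. Of the tested members, 23 were lower in all 3 pairs (47.9% of all genes were) and 5 were higher in all 3 (18.2%). For 15 members every cold-acclimated library lay below every non-acclimated one (31.4% of all genes), and for 1, Zbtb41, above (9.69%). These counts depend on the scaling. With median of ratios scaling 19 members were lower and 10 higher in all 3 pairs (3950 and 4230 of the 12227 genes). On that scale 11 members lay below without overlap and 8 above (2426 and 2566 of the genes). Summed over the 42 members, the level was 479, 554 and 559 TPM at 37°C and 349, 379 and 389 TPM at 26°C. The 9 downregulated members, which were picked by these same values, made up 122, 132 and 115 TPM of the first and 36.3, 32.7 and 26.8 TPM of the second. The number of members at 10 TPM or more was 22, 21 and 21 at 37°C and 11, 12 and 15 at 26°C. This cut lies close to the median level of the members in each 37°C library. A small fall in level is therefore enough to move a member near the cut across it. The same count was not made over all genes, so whether the drop in this number exceeds the background was not tested.

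Not every call held when 1 library was left out. With a non-acclimated library left out, lower calls numbered 4 (replicate 1), 4 (replicate 2) and 8 (replicate 3) of the 36 members, where 4.31%, 2.82% and 14.9% of all genes were called lower. With a cold-acclimated library left out they numbered 4 (replicate 1), 5 (replicate 2) and 11 (replicate 3), where 3.68%, 4.91% and 22.3% of all genes were. Zbtb26, Zbtb4 and Zbtb7b, 3 genes, were called in each of these 6 fits. Without both replicate 3 libraries 9 members were called, with Zbtb14 lost and Zbtb12 gained. That is 25.0% of the members against 25.3% of all genes, so in replicates 1 and 2 the share of members was no higher than the background. Without both replicate 2 libraries, a fit chosen after seeing the data, limma called none of the 12227 genes in either direction (smallest adjusted p = 0.16). There the same 9 members were lower at an unadjusted p under 0.05, against 15.1% of all genes, with log2 fold changes from -2.83 (Zbtb26) to -1.25 (Zbtb14). These members were picked by the main fit, which holds the same libraries, so this count is not independent of that choice.

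Zbtb7b was downregulated in cold-acclimated cells. Its level was 30.5, 33.5 and 28.8 TPM at 37°C and 8.28, 4.46 and 8.28 TPM at 26°C. Every cold-acclimated library lay far below every non-acclimated one, and the means were 30.9 ± 2.41 and 7.01 ± 2.21 TPM (SD, n = 3). The log2 fold change was -2.04 ± 0.29 (standard error) with a limma adjusted p of 0.0076, and the means differed 4.41-fold. Among the members it ranked 4 by level at 37°C and 20 at 26°C. Replicate 3, with high Cd4, and replicates 1 and 2, with Cd4 near 0, had similar Zbtb7b levels at 37°C. Among the genes that ThPOK is known to act on, Runx3, the factor of the CD8 lineage, was at 142, 118 and 175 TPM at 37°C and at 198, 171 and 158 TPM at 26°C (log2 fold change 0.29 ± 0.23, adjusted p = 0.41). Cd8a was at 0 in all 6 libraries and Cd8b1 in 5, with 0.225 TPM in cold-acclimated replicate 2. Gata3, which acts upstream of Zbtb7b in the thymus, had a log2 fold change of -0.14 ± 0.30 (adjusted p = 0.78). Zbtb7b (chr3:89284953-89300976, minus strand, GRCm39) overlaps the listed gene Gm15417 on the opposite strand, and the strand setting of the counting is not given in the sources used here.

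The promoter of Zbtb7b is shown because this gene carries the clearest link between the family and the identity of helper T cells. Promoters are RefSeq sequence from 250 bases before to 50 bases after a start annotated by RefSeq, from a table of GRCm38.p6, and were placed in GRCm39 by exact match. Where the table lists several starts, the one nearest to the start in the deposited table was taken. For Zbtb7b and Zbtb41 the RefSeq start differs from the deposited one, so that the window of Zbtb7b lies inside the deposited gene span and that of Zbtb41 mostly does. Capitals mark GGGCGG or its complement CCGCCC, the core of a GC box as read on either strand. The window of Zbtb7b is chr3:89300636-89300935 (minus strand) and holds 3 such matches and 8 CpG.
Zbtb7b: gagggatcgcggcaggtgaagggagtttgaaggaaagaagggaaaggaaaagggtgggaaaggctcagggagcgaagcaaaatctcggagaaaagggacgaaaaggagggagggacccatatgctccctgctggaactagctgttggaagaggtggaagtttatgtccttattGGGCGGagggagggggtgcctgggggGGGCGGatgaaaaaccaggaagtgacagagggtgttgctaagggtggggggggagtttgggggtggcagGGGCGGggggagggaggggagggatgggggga

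Zbtb7a, Zbtb32, Zbtb17, Zbtb1 and Zbtb25 were not called. Zbtb7a encodes LRF, a close relative of ThPOK that helps to maintain helper T cells, and ranked 1 among the members at both temperatures. It was at 44.6, 50.3 and 65.7 TPM at 37°C and at 37.7, 47.9 and 41.1 TPM at 26°C, with overlapping groups (log2 fold change -0.33 ± 0.24, adjusted p = 0.37, and 0.081 with median of ratios scaling). Zbtb32 encodes ROG, a repressor of GATA factors that restrains T cell cytokine genes, and ranked 2 at both temperatures. Its values were 28.8, 48.1 and 20.9 TPM at 37°C and 38.2, 44.9 and 17.5 TPM at 26°C. The replicate pairs 1, 2 and 3 had log2 fold changes of 0.40, -0.10 and -0.24, and the replicates differed more than the temperatures (log2 fold change 0.018 ± 0.43, adjusted p = 0.98). Its direction turned without non-acclimated replicate 1 (-0.028), non-acclimated replicate 3 (-0.25), cold-acclimated replicate 1 (-0.13) or cold-acclimated replicate 2 (-0.24).

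Zbtb17 encodes MIZ1, the partner through which MYC represses genes. It was at 18.1, 14.8 and 19.2 TPM at 37°C and at 21.4, 18.3 and 21.2 TPM at 26°C, and the groups overlapped (log2 fold change 0.22 ± 0.23, adjusted p = 0.54). Myc was at 168, 413 and 621 TPM at 37°C and at 369, 873 and 430 TPM at 26°C (0.56 ± 0.53, adjusted p = 0.48). Neither member of this pair could be told from no change at this spread. Of the genes that MIZ1 is known to control, Cdkn1a (log2 fold change -1.04 ± 0.78, adjusted p = 0.37) and Cdkn2b (-1.52 ± 0.64, adjusted p = 0.13) were not called, but each was called lower in the fit with the replicate block (adjusted p = 0.0197 and 0.0067).

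Zbtb1, which lymphocytes need for their development, was at 8.40, 9.36 and 11.9 TPM at 37°C and at 4.22, 5.01 and 7.04 TPM at 26°C. Its groups did not overlap, and the log2 fold change of -0.77 ± 0.28 missed the call in both its size and its adjusted p (0.090). With the replicate block the adjusted p of Zbtb1 was 0.039, and its size still missed the call. Zbtb25 lies head to head with Zbtb1 on chromosome 12, and the 2 gene spans share 164 bases on opposite strands. It was at 3.19, 3.56 and 4.87 TPM at 37°C and at 1.47, 1.31 and 3.82 TPM at 26°C, so that cold-acclimated replicate 3 overlapped the controls (-0.68 ± 0.37, adjusted p = 0.22). The within-library log2 ratio of Zbtb25 to Zbtb1 was -1.39, -1.39 and -1.29 at 37°C and -1.52, -1.94 and -0.88 at 26°C, with no separation of the groups.

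Of the other members with a known role in lymphocytes, Zbtb16 had no read in any of the 6 libraries. Zbtb20, a regulator of plasma cells, was at 0.134 to 0.515 TPM at 37°C (44 to 96 reads) and at 0.0680 to 0.253 TPM at 26°C (16 to 62 reads), under the mean TPM needed for the test at a gene length of 27203 bases. Zbtb46, a marker of classical dendritic cells, had at most 4 reads in a library, and Zbtb10 at most 3. Zbtb47 had 1 to 25 reads and Zbtb8b 0 to 11. These 6 genes were below the mean of 1 TPM. In the fit with no filter on low values the 5 with reads were not called (adjusted p = 0.20 to 0.83, and 0.38 for Zbtb20 with a log2 fold change of -0.20 ± 0.12).

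**Figure D2:**
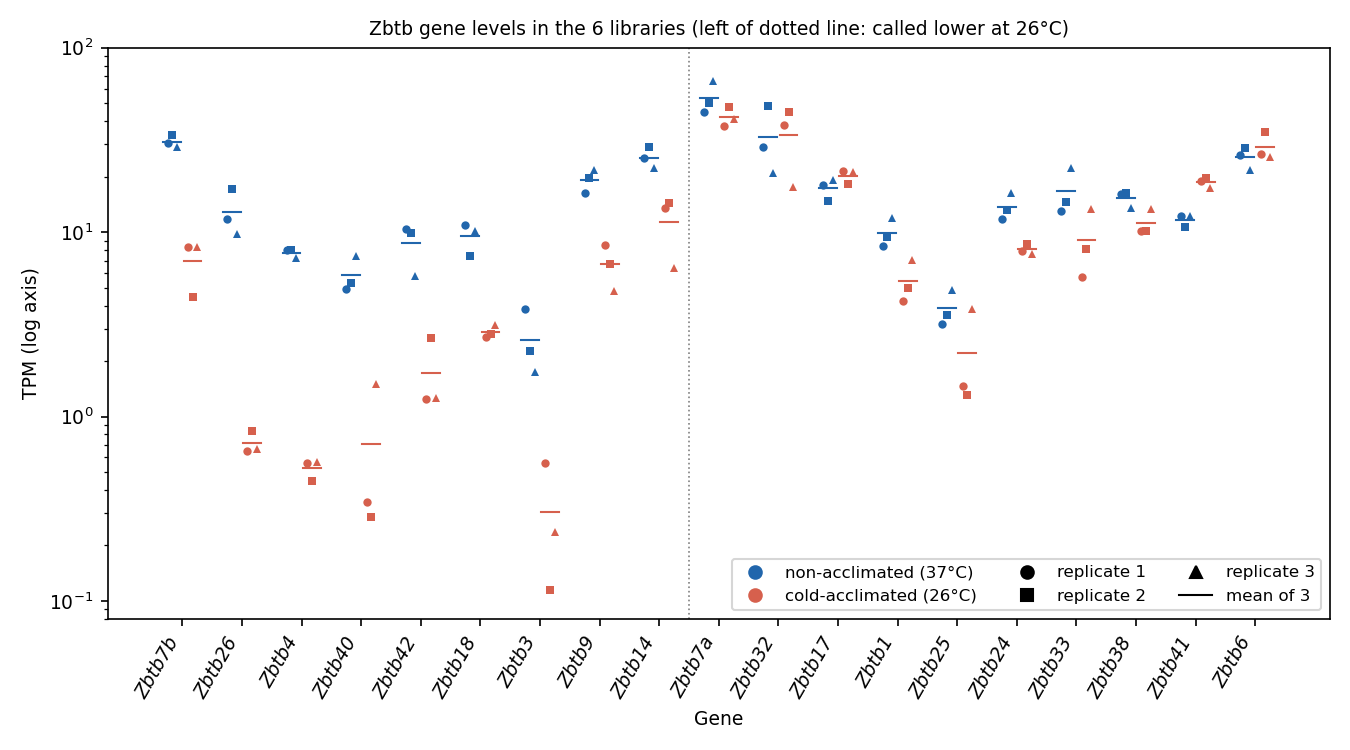
TPM on a log axis of 19 Zbtb genes in the 6 libraries, blue for 37°C and red for 26°C, with a symbol per replicate number and a bar at the mean of 3. The 9 genes left of the dotted line were called lower. Zbtb26 and Zbtb4 fall below 1 TPM in every cold-acclimated library, while Zbtb7a and Zbtb32 have the highest means of the genes shown at 26°C.

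Among the members that bind methylated CpG, Zbtb4 was downregulated. It was at 8.04, 7.97 and 7.22 TPM at 37°C and at 0.560, 0.447 and 0.568 TPM at 26°C, from 466, 554 and 735 reads and 41, 34 and 49 reads. The spread within each group was small beside the gap between them. The log2 fold change was -2.52 ± 0.26 (adjusted p = 0.0067), and 6.78% of the mean level at 37°C was left at 26°C. Zbtb4 (chr11:69656738-69674852, plus strand) lay within the promoter window chr11:69656488-69656787 for its first 50 bases, which holds 2 GC box matches and 22 CpG.
Zbtb4: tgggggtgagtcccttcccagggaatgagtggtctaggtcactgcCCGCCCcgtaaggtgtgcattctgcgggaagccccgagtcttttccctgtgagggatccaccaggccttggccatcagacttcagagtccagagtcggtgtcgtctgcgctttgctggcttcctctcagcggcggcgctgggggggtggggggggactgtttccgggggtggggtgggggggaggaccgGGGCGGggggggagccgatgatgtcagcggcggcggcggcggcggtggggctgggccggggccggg

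Zbtb33, which encodes Kaiso, was at 13.0, 14.6 and 22.3 TPM at 37°C and at 5.69, 8.13 and 13.3 TPM at 26°C. The replicate pairs had log2 fold changes of -1.07, -0.78 and -0.71, but replicate 3 was high at both temperatures and the groups overlapped (-0.85 ± 0.36, adjusted p = 0.13). With the replicate block the adjusted p of Zbtb33 was 0.028, and its size still missed the call. Without cold-acclimated replicate 3 it was called lower (-1.14, adjusted p = 0.0396). Zbtb38 was at 16.0, 16.4 and 13.5 TPM at 37°C and at 10.1, 10.2 and 13.3 TPM at 26°C, with replicate 3 close to level (-0.42 ± 0.24, adjusted p = 0.25). These methyl-CpG binders thus had changes of unequal size, and the differences between them were not tested.

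Zbtb24 is a gene of the ICF syndrome of immunodeficiency, in which satellite DNA loses methylation, and it activates Cdca7, the partner of the helicase HELLS. It was at 11.8, 13.2 and 16.2 TPM at 37°C and at 7.93, 8.66 and 7.57 TPM at 26°C. The groups did not overlap, and the log2 fold change was -0.69 ± 0.24 (adjusted p = 0.0797). Cdca7 was at 91.3, 134 and 123 TPM at 37°C and at 90.5, 67.2 and 70.0 TPM at 26°C (-0.60 ± 0.25, adjusted p = 0.12). Hells was at 34.3, 42.0 and 55.6 TPM at 37°C and at 6.23, 4.15 and 25.6 TPM at 26°C and was called lower (-2.15 ± 0.58, adjusted p = 0.0392). Its call was lost with median of ratios scaling (-1.77, adjusted p = 0.0619) and without any single library (adjusted p = 0.0882 to 0.13) except cold-acclimated replicate 3.

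Zbtb26 had the largest fall of the tested Zbtb genes. It was at 11.8, 17.1 and 9.83 TPM at 37°C and at 0.652, 0.836 and 0.663 TPM at 26°C. These values rest on 429, 747 and 629 reads in the non-acclimated and 30, 40 and 36 reads in the cold-acclimated libraries. The log2 fold change was -2.98 ± 0.29 (adjusted p = 0.0067), and the means differed 18.0-fold. With voom on the recovered reads, which adds no TPM of 1, the log2 fold change was -3.73 (adjusted p = 0.00999).

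Its neighbour Zbtb6 did not follow. The 2 genes lie on the minus strand of chromosome 2, Zbtb26 at chr2:37322180-37333184 and Zbtb6 at chr2:37315512-37320931, with 1248 bases between them, and each has 2 exons, of which 1 holds coding sequence, in the GENCODE annotation of GRCm39. Zbtb6 was at 26.1, 28.5 and 21.6 TPM at 37°C and at 26.7, 34.9 and 25.7 TPM at 26°C, with overlapping groups (0.18 ± 0.24, adjusted p = 0.62). Within each library the log2 ratio of Zbtb6 to Zbtb26 does not depend on the scaling of that library. It was 1.15, 0.74 and 1.14 at 37°C and 5.35, 5.38 and 5.28 at 26°C, with means of 1.01 ± 0.24 and 5.34 ± 0.055 (SD, n = 3). The promoters of both are shown for this contrast, Zbtb26 at chr2:37333135-37333434 and Zbtb6 at chr2:37320882-37321181, both minus strand. Each holds 1 GC box match, and they hold 24 and 19 CpG.
Zbtb26: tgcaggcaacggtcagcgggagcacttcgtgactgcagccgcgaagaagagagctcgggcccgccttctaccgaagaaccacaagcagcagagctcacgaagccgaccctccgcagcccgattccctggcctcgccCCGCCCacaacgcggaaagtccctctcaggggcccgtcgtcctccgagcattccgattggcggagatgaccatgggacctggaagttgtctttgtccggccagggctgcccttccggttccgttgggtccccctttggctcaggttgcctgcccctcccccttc
Zbtb6: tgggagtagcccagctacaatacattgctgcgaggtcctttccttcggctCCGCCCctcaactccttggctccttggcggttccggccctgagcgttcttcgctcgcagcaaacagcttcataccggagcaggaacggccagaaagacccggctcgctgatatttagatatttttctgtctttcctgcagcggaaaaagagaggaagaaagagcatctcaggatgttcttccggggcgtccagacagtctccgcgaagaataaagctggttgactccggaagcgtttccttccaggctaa

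Zbtb34 and Zbtb43 form another pair of neighbours on the minus strand of chromosome 2, with 18959 bases between them. Zbtb34 was at 5.39, 5.78 and 4.08 TPM at 37°C and at 3.00, 3.04 and 1.56 TPM at 26°C (-0.81 ± 0.31, adjusted p = 0.0985, and 0.043 with the replicate block). Zbtb43 was at 17.9, 18.3 and 13.2 TPM and at 17.9, 26.3 and 16.7 TPM (0.27 ± 0.27, adjusted p = 0.51). Neither was called, while the log2 ratio of Zbtb34 to Zbtb43 within a library went from -1.73, -1.67 and -1.69 at 37°C to -2.58, -3.11 and -3.43 at 26°C, and the groups did not overlap. For Zbtb8os and Zbtb8a on chromosome 4 the ratio was 1.48, 2.20 and 2.04 at 37°C and 1.74, 1.91 and 2.30 at 26°C, which overlapped.

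**Figure D3:**
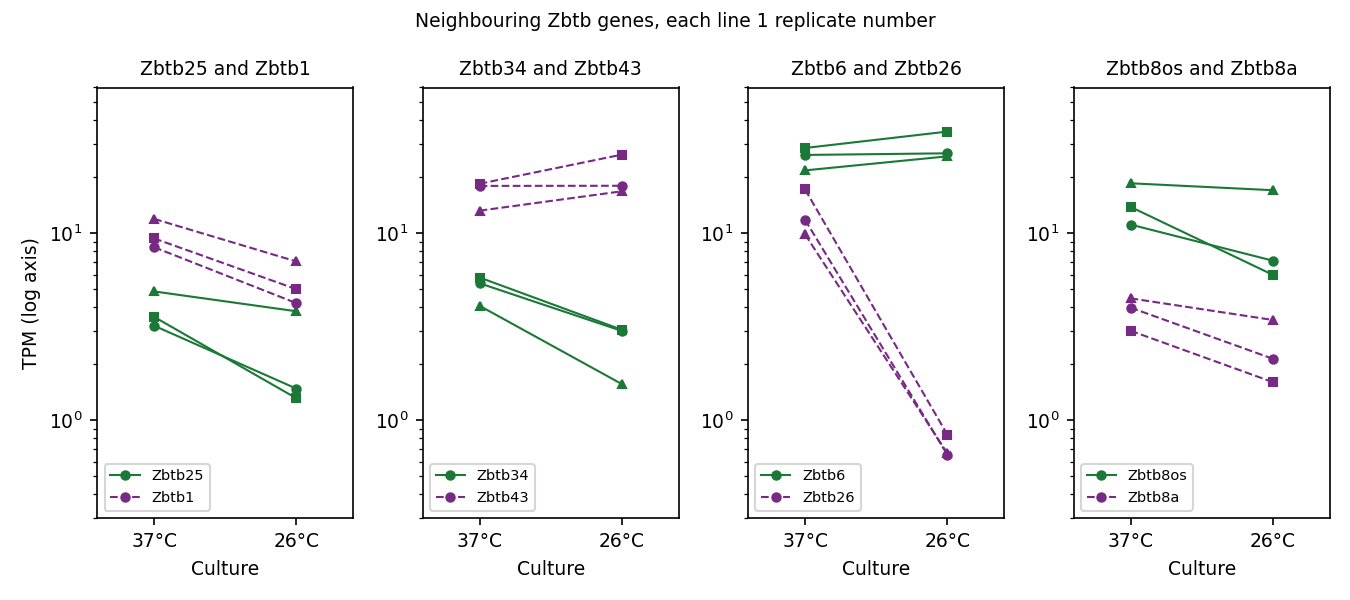
TPM on a log axis of 4 pairs of neighbouring Zbtb genes, with a line from 37°C to 26°C for each replicate number, solid green for the first gene named and dashed purple for the second. The lines of Zbtb6 stay between 21.6 and 34.9 TPM while those of Zbtb26 drop below 1 TPM in all 3 replicates, and in the outer 2 panels both genes are lower at 26°C in every replicate.

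The other 6 downregulated members had smaller or less stable changes. In the limma fit with the replicate block each of them kept its call, with adjusted p from 0.0056 (Zbtb40) to 0.0157 (Zbtb14). The losses of calls given below are from fits without the block. Zbtb40 was at 4.94, 5.32 and 7.39 TPM at 37°C and at 0.343, 0.285 and 1.49 TPM at 26°C, with a log2 fold change of -2.06 ± 0.36 (adjusted p = 0.0118). Replicate 3 was the highest in both groups, and the groups did not overlap. The call was lost without non-acclimated replicate 2 (adjusted p = 0.0518) or cold-acclimated replicate 1 (0.0539). Zbtb40 has the most exons of the 9, with 19, and overlaps the listed gene Gm23834 on the opposite strand.

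Zbtb42 and Zbtb18 are close relatives, and ZBTB18, also named RP58, is a repressor best known from neurons and muscle. Zbtb42 was at 10.4, 9.90 and 5.76 TPM at 37°C and at 1.25, 2.67 and 1.27 TPM at 26°C (-1.83 ± 0.35, adjusted p = 0.0146). Zbtb18 was at 10.9, 7.44 and 10.2 TPM and at 2.69, 2.79 and 3.12 TPM (-1.43 ± 0.26, adjusted p = 0.0139). In both genes each cold-acclimated library lay below each non-acclimated one, and in Zbtb18 the 3 cold-acclimated values were nearly alike. Zbtb42 lost its call without non-acclimated replicate 1 (adjusted p = 0.0600), non-acclimated replicate 2 (0.0664) or cold-acclimated replicate 1 (0.0628), and Zbtb18 without non-acclimated replicate 1 (0.0600), cold-acclimated replicate 1 (0.0606) or cold-acclimated replicate 2 (0.0548).

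Zbtb3 was the lowest of the 9 in level, at 3.81, 2.26 and 1.74 TPM (76, 54 and 61 reads) at 37°C and at 0.556, 0.115 and 0.236 TPM (14, 3 and 7 reads) at 26°C. Its log2 fold change was -1.44 ± 0.34 (adjusted p = 0.0258), and counting error alone is large at this depth. The call was lost without non-acclimated replicate 1 (adjusted p = 0.0799), non-acclimated replicate 2 (0.0811), cold-acclimated replicate 1 (0.0703) or cold-acclimated replicate 2 (0.0959). Zbtb9 was at 16.4, 19.7 and 21.7 TPM at 37°C and at 8.51, 6.74 and 4.79 TPM at 26°C (-1.42 ± 0.28, adjusted p = 0.0162). It was not called with median of ratios scaling (-1.04, adjusted p = 0.0501) or without non-acclimated replicate 1 (adjusted p = 0.0535), non-acclimated replicate 2 (0.0732) or cold-acclimated replicate 2 (0.0582).

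Zbtb14 lay just inside the threshold, at 25.2, 28.9 and 22.1 TPM at 37°C and 13.4, 14.3 and 6.41 TPM at 26°C (-1.15 ± 0.33, adjusted p = 0.0467). It lost its call in each of the 6 fits without 1 library, by its adjusted p in 5 of them (0.0679 to 0.15) and by its size without cold-acclimated replicate 3 (-0.82), and with both other scalings (-0.76 with the median of ratios and -0.88 with voom). Zbtb12 lay just outside, at 11.5, 21.8 and 29.5 TPM at 37°C and 4.54, 5.03 and 12.3 TPM at 26°C. It had log2 fold changes of -1.17, -1.92 and -1.20 in the pairs, but its groups overlapped (-1.43 ± 0.46, adjusted p = 0.0626). With the replicate block its adjusted p was 0.0097 and it was called. It was also called without cold-acclimated replicate 3 (adjusted p = 0.0183), and over all 6 such fits its adjusted p ran from 0.0183 to 0.19.

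Of the members above 0, Zbtb41 had the largest change. It was at 12.2, 10.7 and 12.2 TPM at 37°C and at 18.9, 19.7 and 17.4 TPM at 26°C. Every cold-acclimated library lay above every non-acclimated one, and the means were 11.7 ± 0.86 and 18.7 ± 1.17 TPM (SD, n = 3). The log2 fold change of 0.63 ± 0.22 was not called (adjusted p = 0.0797), while it was with median of ratios scaling (1.02, adjusted p = 0.0279) and with voom (1.05, adjusted p = 0.0235). Its rank among the members went from 20 at 37°C to 7 at 26°C. The promoter of Zbtb41 (chr1:139349871-139350170, plus strand) is shown against those of the members that fell. It has 3 GC box matches and 45 CpG.
Zbtb41: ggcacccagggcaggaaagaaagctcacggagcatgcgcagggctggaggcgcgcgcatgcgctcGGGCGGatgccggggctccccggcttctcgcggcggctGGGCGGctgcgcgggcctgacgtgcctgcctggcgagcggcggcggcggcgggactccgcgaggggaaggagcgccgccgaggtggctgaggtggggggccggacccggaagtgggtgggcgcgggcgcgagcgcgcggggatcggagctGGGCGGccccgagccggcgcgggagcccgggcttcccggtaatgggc

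Promoters were matched for 37 of the 42 members, and those of Zbtb10, Zbtb16, Zbtb40, Zbtb48 and Zbtb7c were not matched. A gene was counted where any of its listed windows held the motif, and its window with the most CpG was used for CpG. A GGGCGG on either strand was found in 28 of the 37 (75.7%), in 69.1% of the 8430 tested protein-coding genes with a promoter and in 38.2% of all 27025 genes in the table. It was present in all 8 matched downregulated members and in 19 of the 25 matched members that were tested and not called. The letters CCAAT were found on either strand in 15 of the 37 members, of which 5 were among the 8, against 43.5% of tested protein-coding genes. The promoters of members held a median of 29 CpG (27 in the downregulated and 31 in the other tested members), against 22 in tested protein-coding genes. These counts describe letters in a fixed window, and no test was made of them.

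The remaining tested members were not called. Those with negative values, by their log2 fold changes, were Zbtb11 (-0.71), Zbtb44 (-0.67), Zbtb8os (-0.59), Zbtb5 (-0.58), Zbtb7c (-0.57), Zbtb8a (-0.54), Zbtb45 (-0.46), Zbtb37 (-0.36), Zbtb22 (-0.27), Zbtb39 (-0.042) and Zbtb2 (-0.031). Zbtb44 and Zbtb7c had groups that did not overlap, at 11.7 to 14.9 against 5.66 to 10.1 TPM for Zbtb44 and 24.8 to 29.4 against 14.2 to 23.0 TPM for Zbtb7c. Zbtb11, which supports mitochondrial function, was at 13.0, 18.8 and 27.5 TPM at 37°C and at 8.47, 8.74 and 18.6 TPM at 26°C, with replicate 3 the highest in both groups. Zbtb8os without cold-acclimated replicate 3 was called lower (-1.01, adjusted p = 0.0445). Zbtb22, Zbtb39 and Zbtb2 turned above 0 with median of ratios scaling (0.13, 0.34 and 0.33).

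Above 0 were also Zbtb49 (0.16), Zbtb48 (0.23) and Zbtb21 (0.26). ZBTB48, also named TZAP, binds telomeric repeats, and its gene was at 6.22, 7.76 and 8.16 TPM at 37°C and at 9.30, 8.87 and 8.13 TPM at 26°C, with overlapping groups (adjusted p = 0.54). ZBTB49 activates Cdkn1a, and its gene was at 3.24, 3.32 and 4.49 TPM at 37°C and at 3.73, 4.35 and 4.50 TPM at 26°C (adjusted p = 0.71). None of the 8 members above 0 was called.

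BTB zinc finger genes with other symbols were described beside the family. Of 8 listed, 7 were tested and none was called in either direction by limma (2 were lower and 0 higher at an unadjusted p under 0.05, against 30.0% and 7.75% of all genes), with a median log2 fold change of -0.046. Patz1, a regulator of thymocyte development, was at 46.9, 51.9 and 55.0 TPM at 37°C and at 47.5, 51.6 and 49.6 TPM at 26°C (-0.046 ± 0.20, adjusted p = 0.90). Bcl6 was at 6.90, 3.17 and 0.588 TPM at 37°C and at 0.156, 0.393 and 0.363 TPM at 26°C, a fall of very unequal size in the 3 replicates (-1.53 ± 0.56, adjusted p = 0.0906). With the replicate block Bcl6 was called lower (adjusted p = 0.0462). Hic1 (0.21), Hic2 (0.50), Zfp131 (0.18), Mynn (-0.29) and Gzf1 (-0.81) were not called, and Bcl6b had no reads.

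Of 15 genes for corepressors and cullin partners, 1 was called lower and none higher, against 16.0% and 2.63% of all genes (4 and 1 at an unadjusted p under 0.05, against 30.0% and 7.75%), with a median of -0.23. The one called was Bcorl1, a relative of the corepressor gene Bcor, at 8.06, 11.4 and 16.5 TPM at 37°C and 3.18, 4.70 and 3.90 TPM at 26°C (-1.36 ± 0.32, adjusted p = 0.026). It was not called with median of ratios scaling (adjusted p = 0.0639) or without any single library (adjusted p = 0.0511 to 0.0974) except cold-acclimated replicate 3 (0.0322). Cul3, the cullin that BTB proteins bind, was at 138, 144 and 177 TPM at 37°C and at 225, 252 and 271 TPM at 26°C. Its groups did not overlap, and its log2 fold change of 0.71 ± 0.21 was not called (adjusted p = 0.0538), while with median of ratios scaling it was (1.12, adjusted p = 0.0161). Of the 12 linked genes, which include Cd4, Runx3, Gata3, Myc, Cdca7 and Hells, 10 were tested, with a median of -0.31. Of these 1, Hells, was called lower and none higher, against 16.0% and 2.63% of all genes. At an unadjusted p under 0.05, 3 were lower and 0 higher, against 30.0% and 7.75% of all genes. With the replicate block 3 were called lower (Cdkn1a, Cdkn2b and Hells), against 21.9% of all genes.

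The Zbtb genes were compared with the protein-coding Zfp genes, the larger set of zinc finger genes in the table. Of 416 Zfp genes 274 were tested, and 84 were called lower (30.7%, against 16.0% of all genes) and 4 higher (1.46%, against 2.63%). With median of ratios scaling 51 were called lower (18.6%, against 8.6% of all genes) and 13 higher (4.74%, against 6.87%). With voom 62 were called lower (22.6%, against 9.51%) and 10 higher (3.65%, against 5.91%). The shares of Zbtb genes called lower in these 2 fits were 19.4% and 22.2%. The median log2 fold change of the Zfp genes in the main fit was -0.55, close to the -0.59 of the Zbtb genes. The difference between these sets was not tested.

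**Figure D4:**
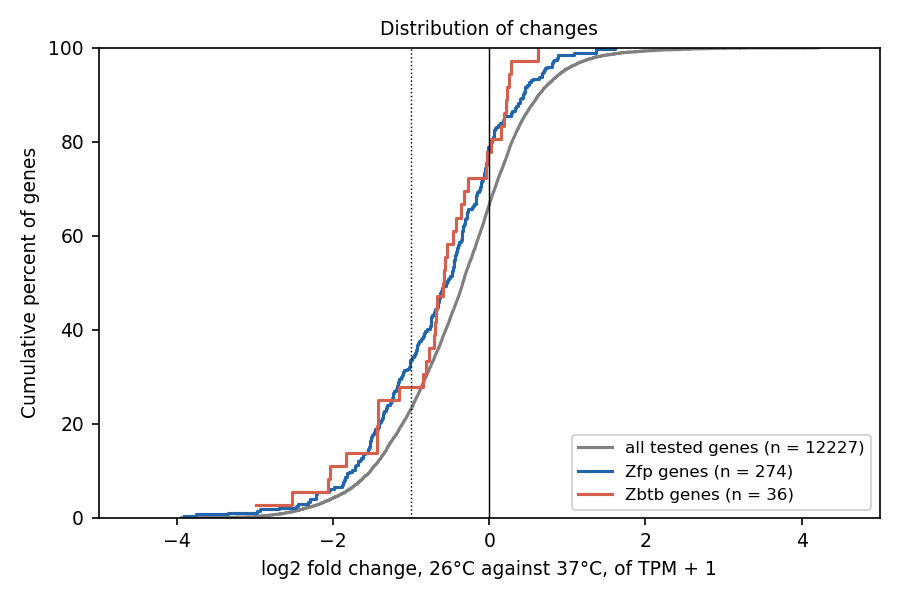
Cumulative percent of genes by log2 fold change of TPM + 1, 26°C against 37°C, for all 12227 tested genes (grey), 274 Zfp genes (blue) and 36 Zbtb genes (red). The Zbtb and Zfp curves lie left of the curve of all genes over most of the range, and the Zbtb curve ends at 0.63 while the other 2 reach further right.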

How the data were processed

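Poly(A)+ RNA of the 6 cultures was made into directional libraries and sequenced from both ends by the authors. The submitters' processing notes name FastQC 0.11.7, Trimmomatic 0.38, HISAT2 2.1.0, featureCounts 1.6.3 and the build GRCm39, and the authors tested genes with DESeq2. The strand setting, annotation release and TPM formula were not given in the sources used here. The deposited table holds TPM per gene as the authors made it. Its unit is relative to the library's total, so a shift of many genes moves all others. Old and new RNA extraction batches are named in the labels but not tied to libraries, so batch can be told apart from neither replicate nor temperature.

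Each gene's TPM values are whole multiples of what 1 read is worth, and the reads were recovered from that step (100% of 21195 genes, within 5.82e-11 of a whole number). The fit was limma 3.58.1 with a trend, in R 4.3.3, on log2(TPM + 1), over genes averaging 1 TPM or more, tested first on simulated data. Thresholds were an adjusted p of 0.05 and a log2 fold change of 1. Alternatives were median of ratios scaling, voom on recovered reads, a pseudocount of 0.1, a minimum of 5 TPM or none, a replicate block, and leaving out libraries (both of replicate 2 chosen after seeing the data). The replicate numbers pair the libraries: deviations from the group means correlated at 0.48, 0.50 and 0.51 for equal numbers and at -0.41 to 0.0186 for unequal ones. The Zbtb genes, the gene lists and the tests were chosen with earlier results of these data known. Genes named with full values are the called members and 12 with known roles in T cells, the MYC system or DNA methylation. Genes outside that rule, such as Zbtb6, Zbtb12 and Zbtb41, were chosen after their values were seen. One marker gene is not reported here. Python 3.11.15, numpy 2.4.6 and pandas 2.3.3 gave the remaining values and matplotlib 3.10.9 the plots.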

Additional observations from a re-analysis of the deposited data

How the results depend on the processing

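Zbtb26, Zbtb4 and Zbtb7b kept their call under each alternative run that tested them except without both replicate 2 libraries, where no gene was called. Zbtb4 was not tested at a minimum of 5 TPM. The lower calls among Zbtb genes, with the share of all genes called lower in the same fit, were 6 of 27 at a minimum of 5 TPM (15.6%), 8 of 41 with no filter (5.29%), 7 with median of ratios scaling (8.6%), 8 with voom (9.51%), 9 with a pseudocount of 0.1 (16.0%), 10 with the replicate block (21.9%), 4 to 11 when 1 library was left out (2.82% to 22.3%), 9 without both replicate 3 libraries (25.3%) and 0 without both replicate 2 libraries (0%). Higher calls were 0 under all of these except median of ratios scaling and voom (1 each, Zbtb41). The replicate block gained Zbtb12 among the Zbtb genes, and Bcl6, Cdkn1a and Cdkn2b among the listed genes, and changed no other call. Over all genes, higher and lower calls were 184 and 1121 with no filter, 840 and 1052 with median of ratios scaling, 723 and 1163 with voom, 653 and 3088 without both replicate 3 libraries, 0 and 0 without both replicate 2 libraries, and 59 to 459 and 345 to 2725 when 1 library was left out. Leaving out a library also leaves fewer samples. The fits without both replicate 3 and without both replicate 2 libraries had equal numbers of libraries, and why their counts differ was not tested.

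The median of the Zbtb genes relative to all genes was -0.34 with a pseudocount of 0.1, -0.47 with no filter, -0.34 with voom, -0.31 without both replicate 3 libraries, -0.22 without both replicate 2 libraries and -0.39 to -0.14 when 1 library was left out, below 0 throughout. With median of ratios scaling and voom, 4 genes turned above 0: Zbtb7a (0.081 and 0.047), Zbtb22 (0.13 and 0.10), Zbtb39 (0.34 and 0.33) and Zbtb2 (0.33 and 0.34). Leaving out 1 library turned Zbtb39 (-0.17 to 0.11), Zbtb2 (-0.061 to 0.013, and 0.037 without both replicate 2 libraries) and Zbtb32 (-0.25 to 0.42). Depth limits the low genes: a TPM of 1 rests on about 26 to 43 reads.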

Other observations

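Zbtb11os1, a noncoding gene antisense to Zbtb11 and no member by the rule, was at 7.67, 14.3 and 23.7 TPM at 37°C and at 7.45, 4.03 and 9.72 TPM at 26°C (log2 fold change -0.95 ± 0.45, limma adjusted p = 0.17). The 2 genes overlap on opposite strands, and with the strand setting of the counting not given in the sources used here their reads cannot be told apart. In all, 19 of the 42 Zbtb genes overlap another listed gene, among them 2 of the 9 downregulated ones (Zbtb40 and Zbtb7b). In the GENCODE annotation the downregulated members had a median of 2 exons (2 to 19) and the other tested members of 3 (2 to 16), with 4 of 9 and 9 of 27 having a single coding exon. Over the 36 tested members, which share the same libraries, Spearman's rho of the log2 fold change was 0.13 with gene length and 0.056 with the level at 37°C.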
